A study of Rattus norvegicus with 6 samples.

Results

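The miR-99, miR-100 and miR-125 miRNAs of rat that lie in gene clusters with let-7 were examined in the myocardium after myocardial infarction (MI). They are rno-miR-99a-5p, rno-miR-99b-5p, rno-miR-100-5p, rno-miR-125a-5p and rno-miR-125b-5p (written here without rno, the prefix for rat), 5 of the 758 miRNAs on the array. The rule goes by name, for where their genes lie, and uses no measured value, but it was set with earlier results of these data known. RNA came from male Sprague–Dawley rats 4 weeks after surgery. In the model group the left anterior descending coronary artery had been tied, and in the control group a sham operation passed the thread without tying it. Each group holds 3 arrays, from 3 of the 5 rats per group. The model samples are described as myocardium from the margin of the infarct, and the control samples as myocardium with no zone given, so that zone and group cannot be told apart.

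A miRNA is cut from a hairpin transcript and finds its target mRNAs mainly through its seed, bases 2 to 8 from the 5′ end, lowering their translation and stability. The family of miR-99 and miR-100 is known for repressing Mtor and the insulin-like growth factor receptor. The miR-125 family is the vertebrate counterpart of the nematode timing miRNA lin-4, and let-7 is a second timing miRNA that promotes differentiation. In animals the 3 families are often encoded side by side, as they are in rat. In RefSeq's order of genes on GRCr8, Mir99b, Mirlet7e and Mir125a follow one another on chromosome 1 within the span of Spaca6. Mir100, Mirlet7a-2 and Mir125b1 do so on chromosome 8 within the span of Mir100hgl, and Mir99a, Mirlet7c1 and Mir125b2 on chromosome 11. No other gene lies wholly between any of these neighbours. The mature miR-125b-5p thus has 2 gene copies, and its signal on the array cannot be divided between them.

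The mature sequences are shown because the seed sets the families and the bases after it set the members apart. RefSeq (GRCr8) gave a mature sequence for 4 of the 5 miRNAs and for all 3 let-7 partners, and miR-99a-5p is named only. Capitals mark the seed.
miR-99b-5p: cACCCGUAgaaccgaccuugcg
miR-100-5p: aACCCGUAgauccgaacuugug
miR-125a-5p: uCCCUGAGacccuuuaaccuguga
miR-125b-5p: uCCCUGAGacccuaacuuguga
let-7a-5p: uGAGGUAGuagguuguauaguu
let-7c-5p: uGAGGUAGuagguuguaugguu
let-7e-5p: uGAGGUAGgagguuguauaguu
All of these lie on the plus strand. MiR-99b-5p is at chr1:67350070-67350091, miR-125a-5p at chr1:67350689-67350712 and let-7e-5p between them at chr1:67350243-67350264. MiR-100-5p is at chr8:50798307-50798328 and its partner copy of let-7a-5p at chr8:50805219-50805240. The Mir125b2 copy of miR-125b-5p is at chr11:29732588-29732609 and its partner copy of let-7c-5p at chr11:29688127-29688148. MiR-99b-5p differs from miR-100-5p by A1C, U11A, A16C and U21C, counted from the 5′ end with the base of miR-100-5p first. MiR-125a-5p and miR-125b-5p share their first 13 bases and their last 5 bases. The partners differ from let-7a-5p by A19G in let-7c-5p and by U9G in let-7e-5p.

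All 5 miRNAs were detected on all 6 arrays. Each array measured RNA labelled with a single dye, and the signal of a miRNA is the sum of its detected probes. The arrays detected 206 to 222 of the 758 miRNAs, the lowest detected signal was 1.16 to 1.60, and no spot was saturated. Before comparison, signals were scaled to a common 75th percentile, taken over the 198 miRNAs with a signal on all 6 arrays, and log2 was taken. On this scale the median log2 fold change, model minus control, was -0.15 over those 198 miRNAs. Without scaling it was 0.09. The 6 arrays share 1 slide and 1 scan time, but the control arrays and model array 1 lie in its row 1 and the other two model arrays in its row 2.

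Of the 5 miRNAs, only miR-125b-5p passed the test across all miRNAs, and it was higher in the model group. The other members had higher means in the model group by smaller amounts that did not pass. With limma and an adjusted p under 0.05, 22 of the 214 miRNAs tested were called higher in the model group (10.3%) and 27 lower (12.6%), so 1 member of 5 called higher and 0 called lower stand beside these shares. With an unadjusted p under 0.05, limma gave 30 higher miRNAs (14.0%) and 51 lower (23.8%). All 5 members had a log2 fold change above 0, though miR-125a-5p fell below 0 under another scaling, as had 77 of the 214 miRNAs tested (36.0%), and the median of the members was 0.19 against -0.14 over the 214. In tissue RNA, fewer cells of a type and less of a miRNA per cell cannot be told apart.

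**Figure D1:**
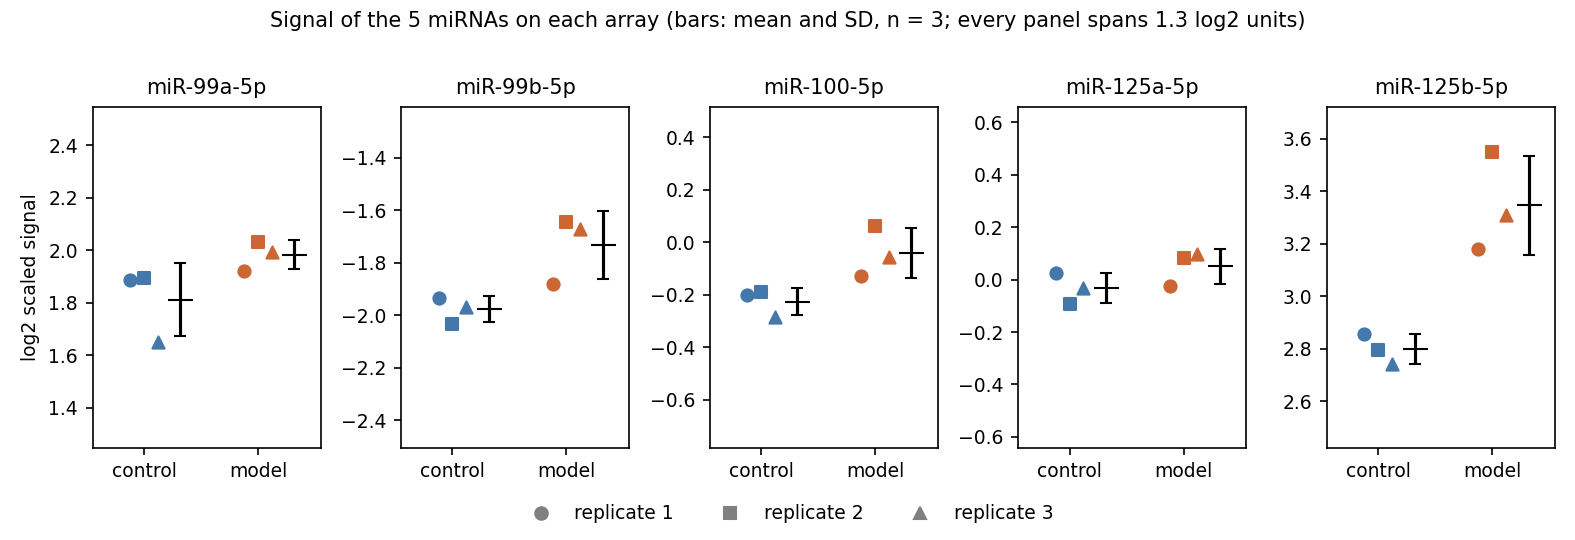
Log2 scaled signal of each of the 5 miRNAs on every array, control in blue and model in orange, with a symbol for each replicate number and the mean and SD of each group (n = 3). The groups of miR-125b-5p stand apart, with control arrays from 2.74 to 2.86 and model arrays from 3.18 to 3.55, and those of miR-125a-5p overlap.

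MiR-125b-5p, which has a gene copy in both the chromosome 8 and the chromosome 11 cluster, had signals of 1051, 1311 and 974 on control arrays 1, 2 and 3. On model arrays 1, 2 and 3 they were 1842, 2260.5 and 1666. The lowest model array exceeded the highest control array, and model array 2 was the highest of all. On the log2 scaled signal the control mean was 2.80 ± 0.06 and the model mean 3.35 ± 0.19 (SD, n = 3). The log2 fold change was 0.55 (SE 0.11, 95% interval 0.27 to 0.83; limma, adjusted p = 0.0217), which is 46.2% higher. This difference is larger than the spread between replicates. MiR-125b-5p ranked 22 of 214 by log2 fold change. An exact permutation test of 3 arrays against 3 gave p = 0.10, the smallest it can give. Within row 1 of the slide, model array 1 was above the control mean by 0.38, and with the row as a block the adjusted p from limma was 0.126. The call was also lost in limma without control array 1 (adjusted p = 0.0834), control array 2 (0.0637), control array 3 (0.0686) or model array 3 (0.0581), with log2 fold changes of 0.44 to 0.61 when any single array was left out.

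MiR-125a-5p carries the same seed as miR-125b-5p and comes from the chromosome 1 cluster. Its signals were 147, 177 and 142 in the control rats and 199.6, 204 and 179.8 in the model rats. Unscaled, the model arrays were all above the control arrays, but after scaling the groups overlapped, with control values of -0.09 to 0.02 and model values of -0.03 to 0.10. The SD was 0.06 for control and 0.07 for model arrays (n = 3). The log2 fold change was 0.08 (SE 0.08, 95% interval -0.10 to 0.27; limma, adjusted p = 0.421), with an interval that includes 0. It was -0.04 when arrays were scaled to the 75th percentile of all miRNAs, so its direction depends on the scaling. Model array 1 differed from the control mean by 0.0068 within row 1.

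MiR-99b-5p is the miR-99 member of the chromosome 1 cluster. Its control signals were 38.0, 46.3 and 37.2, and its model signals were 55.2, 61.7 and 52.8. The groups did not overlap before or after scaling, and model array 1 was the lowest of the model arrays after scaling. The log2 fold change was 0.25 (SE 0.09, 95% interval 0.02 to 0.47; limma, unadjusted p = 0.0375 and adjusted p = 0.120), the largest of the miR-99 and miR-100 members as processed here. It was the smallest of them with normexp background correction, at 0.044, and with the slide row as a block, at 0.097. Model array 1 was above the control mean by 0.10.

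MiR-100-5p, of the chromosome 8 cluster, gave 126, 166 and 119 in the control group against 186, 201 and 162 in the model group. Control array 2 exceeded model array 3 before scaling, and after scaling the groups did not overlap, with means of -0.23 ± 0.05 and -0.04 ± 0.10 (SD, n = 3). The log2 fold change was 0.19 (SE 0.08, 95% interval -0.02 to 0.39; limma, adjusted p = 0.153), and that of model array 1 alone was 0.10.

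MiR-99a-5p, of the chromosome 11 cluster, had control signals of 536, 704 and 457 and model signals of 770.3, 789 and 669. Again control array 2 exceeded model array 3 before scaling, and the groups were apart after it, at 1.65 to 1.90 and 1.92 to 2.03. The log2 fold change was 0.17 (SE 0.10, 95% interval -0.06 to 0.41; limma, adjusted p = 0.224). Control array 3 was the lowest, and without it the log2 fold change was 0.08.

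Counted together, 4 of the 5 miRNAs had scaled signals that did not overlap between groups and were higher in the model group, beside 35 of the 214 miRNAs tested (16.4%). On unscaled signals 3 of 5 did so, miR-99b-5p, miR-125a-5p and miR-125b-5p, beside 36 of 214 (16.8%). Only miR-99b-5p and miR-125b-5p were apart on both scales. For the opposite direction the shares were 30.8% scaled and 7.01% unscaled, with no member. The exact permutation test, which cannot go below 0.10 here, gave 0.10 for the 4 miRNAs whose scaled groups were apart and 0.20 for miR-125a-5p. Set against the median change of those 198 miRNAs, the log2 fold changes were 0.32 for miR-99a-5p, 0.39 for miR-99b-5p, 0.33 for miR-100-5p, 0.23 for miR-125a-5p and 0.70 for miR-125b-5p.

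**Figure D2:**
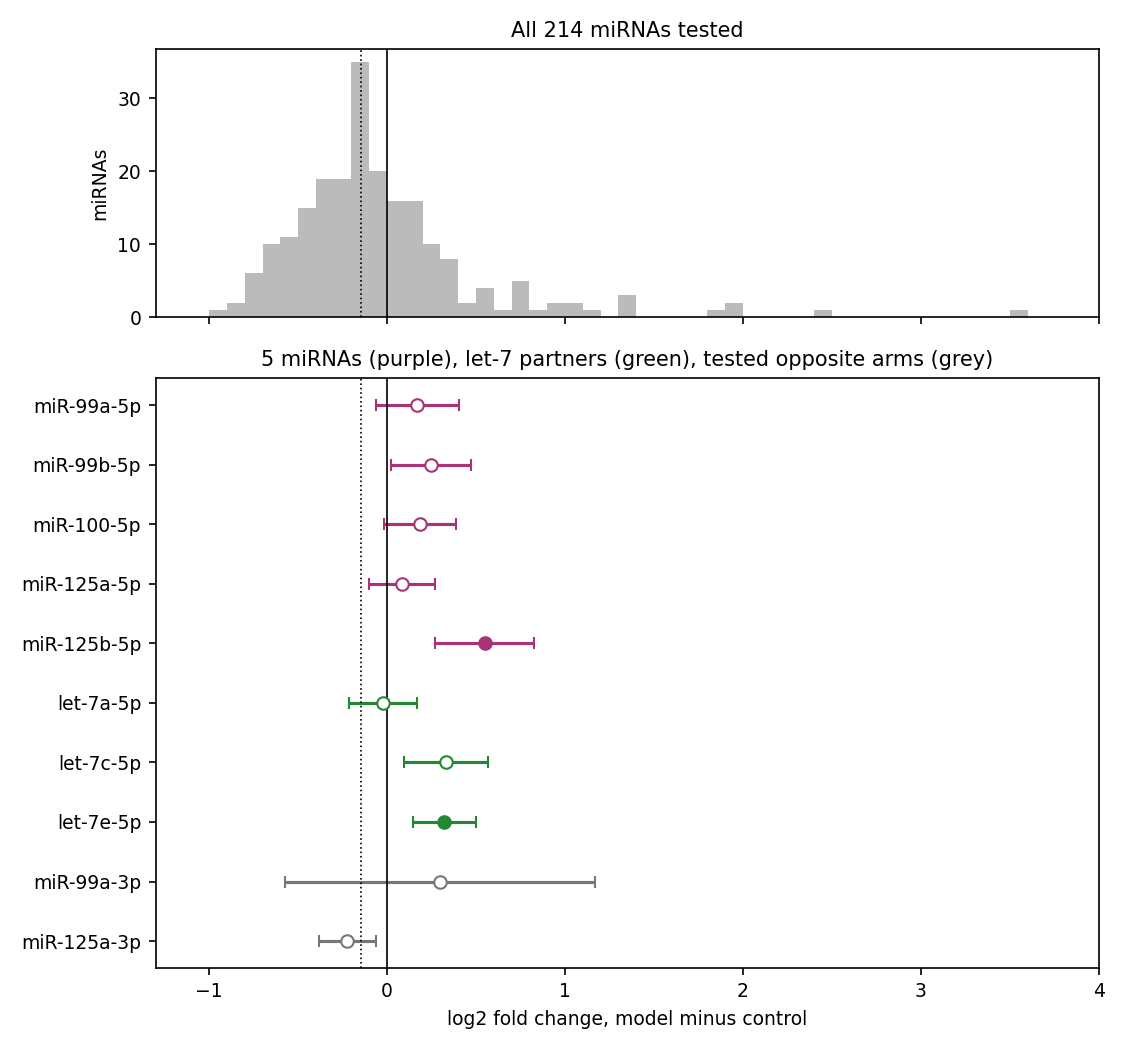
Above, the number of miRNAs at each log2 fold change (model minus control) among the 214 tested, with a dotted line at -0.15, the median of the 198 miRNAs that all arrays detected. Below, the log2 fold change and 95% interval of the 5 miRNAs, their let-7 partners and their 2 tested opposite arms, filled where the adjusted p from limma was under 0.05, which holds for miR-125b-5p at 0.55 and let-7e-5p at 0.32.

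The array carries 2 probes for each member, each in 8 spots, and all 480 of these spots were well above background. The probes of a miRNA gave like log2 fold changes. They were 0.58 and 0.54 for miR-125b-5p, 0.06 and 0.09 for miR-125a-5p, 0.21 and 0.26 for miR-99b-5p, 0.18 and 0.19 for miR-100-5p, and 0.15 and 0.18 for miR-99a-5p. The largest gap between the probes of a miRNA was 0.05, and spots of a probe varied within an array by an SD of 0.02 to 0.17 on the log2 scale. On scaled signals the groups did not overlap for 8 of the 10 probes, and the exceptions were both probes of miR-125a-5p. On unscaled signals 6 of 10 were apart, and the exceptions were both probes of miR-99a-5p and of miR-100-5p. The brighter probe of miR-125b-5p carried 90.0% to 90.4% of its signal on every array. Probes share arrays and are not replicates, and how far a probe also binds the related miRNA was not tested.

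**Figure D3:**
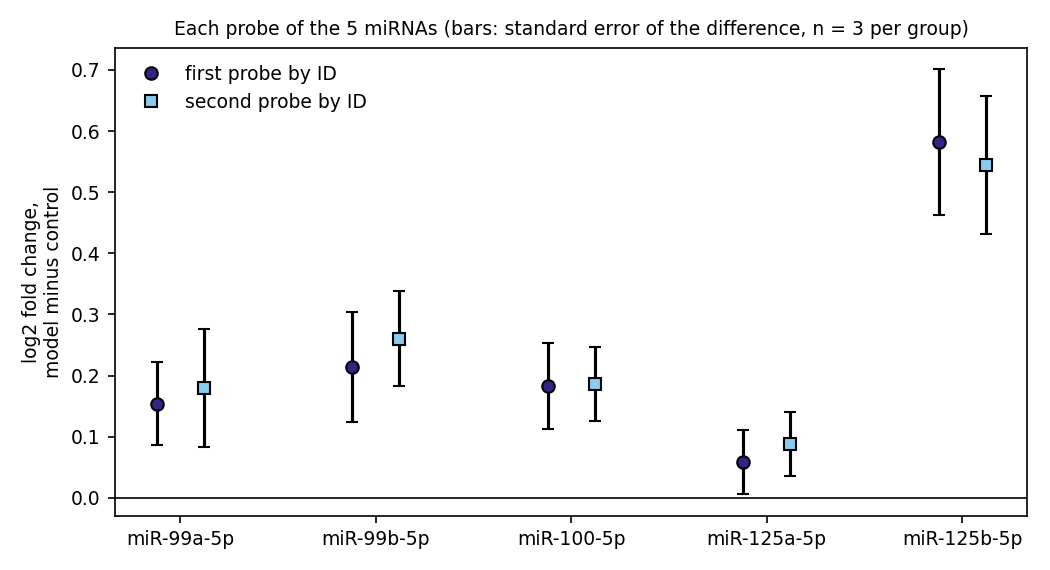
Log2 fold change (model minus control) of each of the 2 probes of the 5 miRNAs, with bars for the standard error of the difference (n = 3 arrays per group). Both probes of miR-125b-5p, at 0.58 and 0.54, lie above all other probes.

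A difference between miRNAs within an array does not depend on a factor that scales the whole array, so the members were also compared pair by pair, as the change in their log2 difference from control to model. The question was whether miRNAs of one family or cluster moved equally. In 5 of the 10 pairs the groups did not overlap, and 4 of these pairs contain miR-125b-5p, so that they are not independent of one another. The same share over pairs of all miRNAs tested was not computed. Among single miRNAs, scaled groups were apart and higher for 16.4% and apart and lower for 30.8%. The change of miR-125b-5p exceeded that of miR-125a-5p, which has the same seed, by 0.47. Relative to the control mean, this difference was 0.0029, 0.05 and -0.06 for the controls and 0.38, 0.64 and 0.38 for the models. Model array 2 was the highest, and model array 1, in the row of the controls, was as far from them as model array 3.

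MiR-125b-5p also exceeded miR-99a-5p by 0.38, miR-100-5p by 0.36 and miR-99b-5p by 0.30 in its change, with no overlap of groups. These included its cluster neighbours on chromosome 8 and chromosome 11. Each exact permutation test gave p = 0.10, the smallest possible, and 0.20 after adjustment over the 10 pairs. In limma over the 213 other miRNAs tested, with each array expressed relative to the second miRNA of the pair, the adjusted p was 0.0282 against miR-125a-5p (95% interval 0.20 to 0.73). It was 0.0265 against miR-100-5p (0.14 to 0.59), 0.0415 against miR-99a-5p (0.10 to 0.65) and 0.0542 against miR-99b-5p (0.04 to 0.57). Unadjusted, p in limma was 0.0048 against miR-125a-5p, 0.0066 against miR-100-5p, 0.0148 against miR-99a-5p and 0.0301 against miR-99b-5p. The share of the 213 miRNAs that passed in each fit is not given here. These adjusted p-values therefore do not set miR-125b-5p apart from other miRNAs. These fits were added after the values had been seen.

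The remaining pairs were closer. MiR-99b-5p exceeded miR-125a-5p, the other end of its own cluster, by 0.16 with no overlap of groups (limma, adjusted p = 0.210, 95% interval -0.06 to 0.38). That difference was 0.045 with quantile normalization and turned to -0.010 with normexp background correction. Changes of miR-100-5p and miR-99a-5p differed by 0.01, with an interval of -0.22 to 0.25 in limma that leaves room for a difference in either direction. The other 4 pairs differed by 0.06 to 0.10 and their groups overlapped. The mean of both miR-125 members minus the mean of the 3 miR-99 and miR-100 members rose by 0.12 without overlap (exact permutation p = 0.10, the smallest possible). It rose through miR-125b-5p alone, since the change of miR-125a-5p was smaller than that of each of the 3, by 0.09, 0.10 and 0.16.

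**Figure D4:**
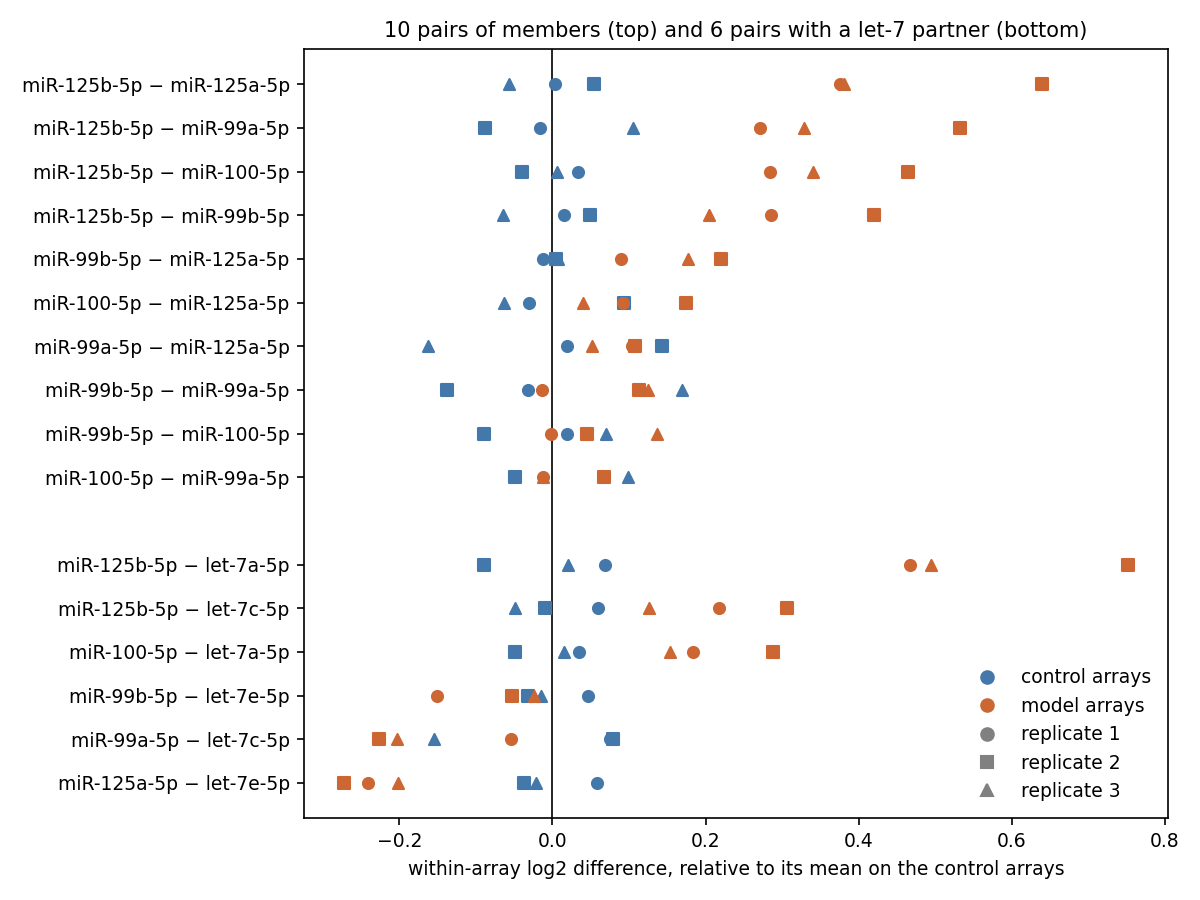
Within-array log2 difference of each pair on every array, set to a mean of 0 on the control arrays, control in blue and model in orange, with a symbol for each replicate number. The 4 pairs of miR-125b-5p with another member lie to the right, with model arrays at 0.20 to 0.64.

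The log2 fold changes of the let-7 partners were not all like those of their neighbours. Of the 3 partners, let-7e-5p of the chromosome 1 cluster was called higher, at a log2 fold change of 0.32 (limma, adjusted p = 0.0281, beside 10.3% of miRNAs called higher), and its control signals of 259 to 333 did not overlap with its model signals of 379 to 451. That call was lost when control array 1 (adjusted p = 0.221), control array 2 (0.0801), control array 3 (0.0609), model array 2 (0.0552) or model array 3 (0.0845) was left out, and with the slide row as a block (0.127). Let-7c-5p, which the chromosome 11 cluster shares with a gene on chromosome 7, had a log2 fold change of 0.33 that did not pass (adjusted p = 0.0578), with no overlap. For let-7a-5p, which the chromosome 8 cluster shares with a gene on chromosome 17, it was -0.02 (adjusted p = 0.861), with overlapping groups and a sign that other scalings turned. Other let-7 guide strands, let-7b-5p, let-7d-5p, let-7f-5p, let-7g-5p, let-7i-5p and miR-98-5p, ranged from -0.26 to 0.34, and 0 of 6 passed in limma. Signals of let-7b-5p were 2393 to 3189 for controls and 3635 to 4559 for models. Those of let-7c-5p were close, at 2426 to 3176 and 3674 to 4398. How far a let-7 probe also binds another let-7 miRNA was not tested.

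Set against its partner on the same array, miR-125a-5p changed less than let-7e-5p (difference -0.24), with all model arrays below all control arrays. MiR-125b-5p changed more than let-7c-5p by 0.22 and more than let-7a-5p by 0.57, and miR-100-5p more than let-7a-5p by 0.21, again with no overlap. These 4 pairs each gave p = 0.10 in the exact permutation test, the smallest possible, and 0.15 after adjustment over 6 pairs. The share of such pairs over all miRNAs was not computed, and pairs with a shared miRNA are not independent. MiR-99b-5p minus let-7e-5p (-0.08) and miR-99a-5p minus let-7c-5p (-0.16) overlapped between groups (exact permutation p = 0.20 each).

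Few of the opposite arms of the hairpins, which are usually the less abundant strand, were detected. The array names 9 of the 12 arms looked for, and 5 of them were detected on no array, among them miR-99b-3p, miR-100-3p and miR-125b-1-3p. MiR-125b-2-3p, from the chromosome 11 copy, was detected on model arrays 1 and 2 alone, at 2.25 and 3.11. These lie close to the lowest detected signals of those arrays, 1.44 and 1.42. MiR-125b-2-3p was not among the miRNAs tested, and its signals cannot show which gene copy of miR-125b-5p changed. MiR-125a-3p had control signals of 11.0, 14.0 and 10.8 and model signals of 13.3, 12.2 and 10.7. After scaling it was lower on every model array, with a log2 fold change of -0.22 (limma, adjusted p = 0.0593; 0.019 without scaling) beside 0.08 for its other arm miR-125a-5p. MiR-99a-3p, at 1.65 to 4.89 for controls and 4.10 to 5.44 for models, had a log2 fold change of 0.30 (limma, adjusted p = 0.544). MiR-10a-5p and miR-10b-5p, relatives of miR-99 and miR-100 with another seed, had log2 fold changes of -0.19 and 0.72 and neither passed (limma, adjusted p = 0.848 and 0.293).

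The non-members most like each member were found by the root mean square difference of log2 scaled signals over the 6 arrays, each miRNA centred on its own mean, among 193 miRNAs. MiR-125b-5p was closest to miR-195-5p (0.083), miR-23b-3p (0.095) and miR-497-5p (0.110), against a median of 0.423. For miR-99b-5p the closest were let-7c-5p (0.055) and let-7e-5p (0.059), the second being its neighbour on chromosome 1. MiR-99a-5p was closest to miR-27a-3p (0.050), miR-100-5p to miR-500-3p (0.048) and miR-125a-5p to miR-652-3p (0.053). Among the members themselves, miR-99a-5p and miR-100-5p were nearest to each other (0.057), and miR-125b-5p was farthest from its nearest member, miR-99b-5p (0.168). All arrays and their scaling are shared by these values, which are descriptions.

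MiRNAs known as markers of cell types moved between the same groups. All 4 fibroblast or matrix miRNAs, all of which the study itself picked as higher from these arrays, so that they are not independent evidence of their direction, were called higher in limma, and their summed scaled signal was 3.85 to 4.74 for controls and 10.2 to 14.4 for models. Of the 5 tested cardiomyocyte miRNAs 3 were called lower (summed 114 to 138 and 60.9 to 85.1), and miR-208b-3p was detected on no array. Both endothelial miRNAs were called lower (8.16 to 9.17 and 5.98 to 6.66), but the unscaled signals of each overlapped between groups. Without scaling, limma called 0 of the 214 miRNAs tested lower, so every call of lower given here rests on the scaling. Of 5 leukocyte miRNAs tested, miR-155-5p, also picked by the study, was higher and miR-150-5p lower (summed 2.85 to 3.47 and 2.03 to 2.51), with miR-142-5p detected on no array. Neither smooth muscle miRNA was called (5.04 to 6.72 and 4.74 to 5.46). Of 2 red blood cell miRNAs tested, miR-486 was lower and miR-451-5p was not called (summed 1.79 to 2.10 and 1.13 to 1.43). MiR-144-3p was detected on no array. Control signals were 201 to 264 for miR-486 and 74.7 to 97.1 for miR-451-5p. Whether miR-486 came from red blood cells was not tested. The part of any of these cell types in the difference of miR-125b-5p, or of any other member, was not tested.

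**Figure D5:**
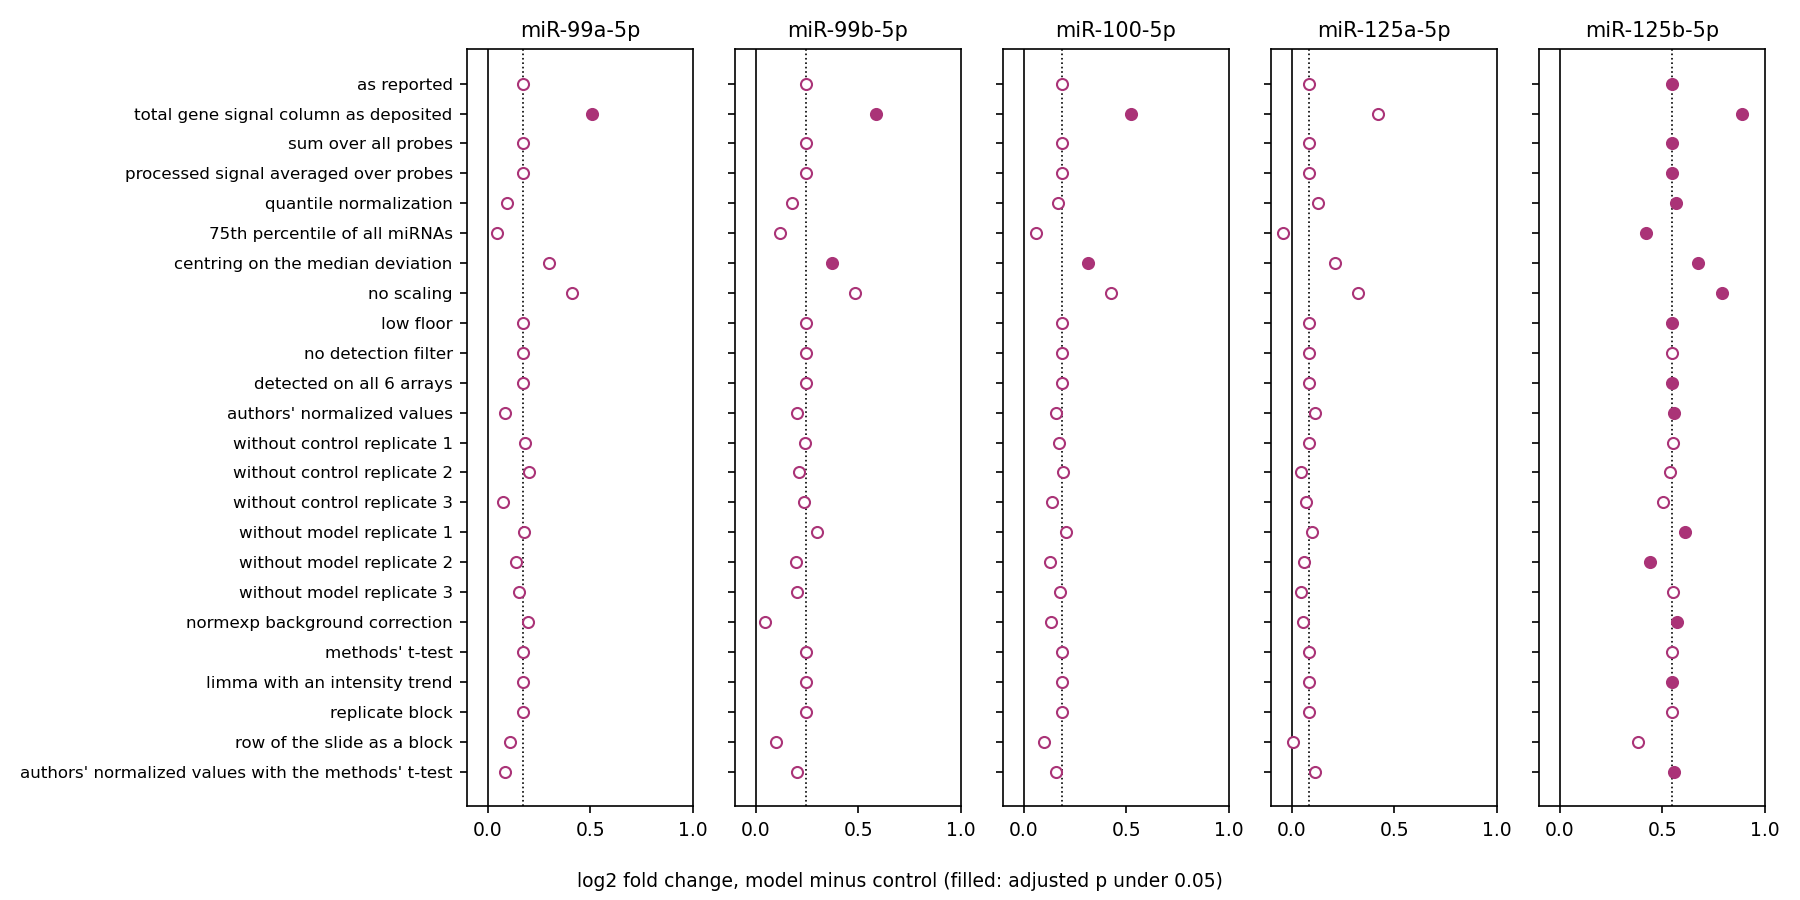
Log2 fold change (model minus control) of the 5 miRNAs under each processing setting, filled where the adjusted p was under 0.05, with the reported value dotted. MiR-125b-5p stayed between 0.38 and 0.89, and miR-125a-5p was below 0 at -0.04 in 1 setting.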

How the data were processed

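The authors deposited Agilent Feature Extraction 10.7.1.1 output (version per the submitters' processing notes) with background-subtracted spot intensity values on a linear scale, not scaled between arrays, and a table of normalized log2 values by a method not given in the sources used here. Their deposited log2 columns had medians of -3.22 to -3.31, and their centring stays unknown. No read depth applies, and 3 arrays per group limit the precision.

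The signal of a miRNA was the sum of its probes over 3 times their error. The deposited total column was not used as the main value, because 289 totals exceeded the sum of their own probes (relative tolerance 0.0001), none of them a member's. Arrays were divided by the 75th percentile of 198 miRNAs detected on all arrays, floored at -6.50 on the log2 scale, which no member reached. The 214 miRNAs that all arrays of either group detected were fitted in R 4.3.3 by lmFit and eBayes of limma 3.58.1, with no covariate, with Benjamini-Hochberg adjustment over all of them and a threshold of 0.05. Two-sided exact permutation tests were used for single values and for differences between miRNAs within arrays. Python 3.11.15, pandas 2.3.3, numpy 2.4.6 and matplotlib 3.10.9 were used otherwise. The fit was tested on simulated data.

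Groups and replicate numbers come from the labels. The limma p-values set a difference between groups against the spread between these samples, with that spread drawn partly from all miRNAs tested. Those of the exact test rank the difference among regroupings of the arrays. Slide row and tissue zone may be part of the difference. The miRNAs named are the 5 members, the lists of neighbours, other arms, relatives and cell type markers, and the miRNAs most like each member. The members, the lists and the tests were chosen with earlier results of these data known. Alternatives changed the signal, background correction (normexp, offset 50), scaling, floor (1), filter, test, block, source of values and arrays used. The planned block for slide and scan date could not be fitted, since there is 1 of each.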

Additional observations from a re-analysis of the deposited data

How the results depend on the processing

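The log2 fold change of miR-125b-5p was above 0 in all 23 alternatives (0.38 to 0.89, adjusted p 3.19e-07 to 0.177). It was 0.55 and no longer called without a detection filter (adjusted p = 0.177), with the methods' t-test (0.0532) and with the replicate block (0.0855), and 0.38 with slide row as a block (0.126). With the deposited totals, miR-99a-5p (0.51), miR-99b-5p (0.58) and miR-100-5p (0.52) were called as well, and with centring on the median deviation miR-99b-5p (0.37) and miR-100-5p (0.31). No member's deposited total exceeded the sum of its probes. With these totals every member was higher than as reported, miR-125a-5p at 0.42 and miR-125b-5p at 0.89. The miR-125 mean minus that of miR-99 and miR-100 stayed at 0.12, so the members shifted together. MiR-125a-5p was -0.043 with the 75th percentile of all miRNAs. Members called higher, 1 as reported, thus numbered 4 with deposited totals, 3 with centring, and 0 without a filter, with the t-test, with the replicate block and with the row block. Leaving out 1 array gave 0 to 1 higher and 0 to 0 lower, with log2 fold changes of 0.44 to 0.61 for miR-125b-5p, 0.08 to 0.20 for miR-99a-5p, 0.19 to 0.30 for miR-99b-5p, 0.13 to 0.21 for miR-100-5p and 0.04 to 0.10 for miR-125a-5p.

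Over all miRNAs, 22 higher became 35 with deposited totals, 6 without a filter, 12 with the replicate block, 11 with the row block and 12 to 22 without 1 array. The 27 lower became 1 with deposited totals, 47 with the 75th percentile of all miRNAs, 16 with centring, 0 without scaling (limma), 3 without a filter, 14 with the authors' values, 11 with the t-test, 4 with the replicate block, 7 with the authors' values and the t-test (added after the data were seen), and 2 to 21 without 1 array.

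Small pair differences changed sign. With normexp, miR-99b-5p fell below miR-99a-5p (-0.15), miR-100-5p (-0.086) and miR-125a-5p (-0.010), and miR-100-5p below miR-99a-5p (-0.064). Within row 1 the differences were -0.014 for miR-99b-5p minus miR-99a-5p, -0.012 for miR-100-5p minus miR-99a-5p, and -0.0018 for miR-99b-5p minus miR-100-5p. MiR-99a-5p minus miR-125a-5p was -0.038 with quantile normalization and -0.028 with the authors' values. MiR-100-5p minus miR-99a-5p was -0.012 to 0.064 without 1 array. The changes of miR-125b-5p against miR-125a-5p (0.47), miR-99a-5p (0.38) and miR-100-5p (0.36) passed in limma but could not pass in the exact test, and kept their sign in every alternative. So did the 6 pairs with a let-7 partner and the difference between the miR-125 mean and that of miR-99 and miR-100 (0.09 to 0.20).

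Among the neighbours, let-7a-5p was above 0 with deposited totals (0.32), quantile normalization (0.073), centring (0.10), no scaling (0.22), the authors' values (0.057 with either test) and normexp (0.028), and -0.075 to 0.010 without 1 array. Let-7e-5p kept its sign in all 23 alternatives (0.20 to 0.66) and lost its call in 13, among them no scaling, quantile normalization, the authors' values and scaling to all miRNAs, and let-7c-5p gained one in 5. MiR-125a-3p was 0.12 with deposited totals and 0.019 without scaling. MiR-99a-3p was -0.15 with normexp and -0.12 to 0.48 without 1 array. The cause of these changes was not tested. For single probes, using all probes changed nothing, since each was detected on every array. Other settings, added after the data were seen, did: without scaling, their log2 fold changes were 0.40 and 0.42 for miR-99a-5p, 0.46 and 0.50 for miR-99b-5p, 0.42 and 0.43 for miR-100-5p, 0.30 and 0.33 for miR-125a-5p and 0.82 and 0.79 for miR-125b-5p. Within row 1 they were 0.066 and 0.11 for miR-99b-5p and -0.0019 and 0.0089 for miR-125a-5p. For miR-99a-5p they were 0.10 and 0.12, for miR-100-5p 0.086 and 0.10, and for miR-125b-5p 0.42 and 0.38. Each was below its value over all arrays. Replicate numbers were not taken as pairs in the main fit. Deviations of arrays of one number had correlations across 198 miRNAs of -0.26, 0.03 and 0.24. For arrays of unlike numbers they were -0.30 to 0.22. With 3 arrays per group, these values cannot decide whether the numbers pair the arrays.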
